A study of Mus musculus with 11 samples.

Results

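The comparison described here is between prostates of mice that express the ERG oncogene and prostates of mice that express ERG and also carry a mutant Trp53 allele. It takes in 6 of the 11 libraries of the series, 3 of the genotype Pb-ERG, Trp53pcR172H/- (called double-mutant from here on) and 3 of the genotype Pb-ERG, chosen by genotype alone. All mice were C57BL/6, were 15 months old and gave 1 library of whole prostate tissue each. The study calls the sequenced tissue of the double-mutant mice prostate tumours. For mice with ERG alone it reports only focal low-grade lesions at this age, in a minority of animals. An effect of the Trp53 alleles within cells and a difference between tumour and mostly benign tissue therefore cannot be told apart here. In both groups a transgene driven by the probasin promoter, which is active in prostate epithelium, supplied a TMPRSS2-ERG form of ERG. In the double-mutant mice a Cre recombinase under the same promoter also acted on Trp53, so that the prostate epithelial cells it reached held 1 allele with the R172H substitution and 1 deleted allele, while cells without Cre kept the alleles unrecombined. No label says whether the Pb-ERG mice carried Cre as well, so an effect of Cre and an effect of the Trp53 alleles cannot be told apart in this comparison. The other 5 libraries, 3 wild-type (WT) and 2 Trp53pcR172H/-, shared the estimate of the spread and gave the effect of the same Trp53 alleles without ERG. The replicates are labelled as separate samples and no label says more of how they were collected, so the p-values measure the spread between these samples.

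The transcription factor p53 halts the cell cycle and triggers cell death after DNA damage, in large part by inducing Cdkn1a and other target genes. Substitution R172H, the mouse form of a frequent mutation in human tumours, lies in the DNA-binding domain and abolishes most of this activity, and such proteins can also act on genes that wild-type p53 does not regulate. ERG is an ETS family transcription factor that a gene fusion places under androgen control in many human prostate cancers. The study that produced the data asked how the 2 lesions together change Wnt/beta-catenin signalling and the synthesis of pyrimidines, the building blocks that dividing cells need for DNA.

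Expression was measured as FPKM, the fragments of a gene scaled to its exon length and to the total fragments of the library, and tested on the scale log2(FPKM + 1), where 1 is added to every value. Differences are given as double-mutant minus Pb-ERG on that scale with their standard error (SE), and they understate the change of genes near or under 1 FPKM. Adjusted p-values are from limma with Benjamini-Hochberg adjustment over the 15583 genes tested. Total fragments lay between 25181541 and 51965100 in Pb-ERG and between 18800285 and 27158200 in the double-mutant group.

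The libraries differed in other measures as well. Rn7sk, Rpph1 and Rmrp, abundant small non-coding RNAs, took 0.886% to 1.57% of the fragments in Pb-ERG and 4.67% to 10.3% in the double-mutant libraries, with no overlap, so that genotype and this share cannot be told apart. In the libraries without ERG their share ran from 1.67% to 7.06%. Pb-ERG replicate 1 stood apart from its group through seminal vesicle transcripts, with a summed level of 28415 FPKM over 9 markers against 68.7 and 71.5 FPKM in the other Pb-ERG libraries and 94.7 to 706 FPKM in the double-mutant libraries. In Pb-ERG replicate 2 only 60.3% of the fragments fell in listed genes, against 74.8% to 93.1% in the other 5 libraries. Across genes, log2(FPKM + 1) correlated with Pearson's r of 0.899 to 0.960 within Pb-ERG, 0.880 to 0.928 within the double-mutant group and 0.840 to 0.892 between the groups.

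The engineered genes came first, as a check of the labels. Erg stood at 9.14, 5.81 and 11.5 FPKM in the Pb-ERG libraries and at 19.6, 9.21 and 6.65 FPKM in the double-mutant libraries, and at 0.441 to 0.851 FPKM in the 5 libraries without the transgene. The groups overlapped, and the difference of 0.30 (SE 0.34, adjusted p = 0.648 from limma, 95% interval -0.46 to 1.06) did not pass the test. Without double-mutant replicate 1 it was -0.11. Fragments counted for the mouse gene and for a transgene cannot be told apart here. Trp53 stood at 6.36, 7.58 and 7.73 FPKM in Pb-ERG and at 4.90, 6.66 and 5.22 FPKM in the double-mutant libraries, a difference of -0.32 (SE 0.19, adjusted p = 0.332) with 1 pair of values overlapping. A gene-level value does not separate the R172H transcript of the recombined cells from the Trp53 transcript of the other cells.

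Beta-catenin, encoded by Ctnnb1 (chr9:120933400-120960507, GRCm38), carries the Wnt signal to the nucleus and also joins cells at adherens junctions. Its FPKM was 136, 119 and 174 in Pb-ERG and 306, 186 and 172 in the double-mutant libraries. Double-mutant replicate 3 lay below Pb-ERG replicate 3, and the difference of 0.60 (SE 0.29, adjusted p = 0.225, 95% interval -0.04 to 1.23) did not pass. When all libraries were scaled to the same FPKM sum the difference was -0.17. The exact two-sided permutation test gave p = 0.2, where 3 against 3 libraries cannot go below 0.1. The study designed a 25-base probe from the human CTNNB1 promoter for its binding assays with mutant p53, and the mouse promoter was searched for it because this region is where the study placed the link between Trp53 and Ctnnb1. In the 250 bases before the RefSeq start of mouse Ctnnb1 the best ungapped match lay at chr9:120933372-120933396 (GRCm38.p6, plus strand), from base -28 to base -4, and 22 of 25 bases were identical, shown in capitals.
Human probe: GCCCcCtCGCGCCCCGCCCCTtGTC
Mouse Ctnnb1 promoter: GCCCgCcCGCGCCCCGCCCCTcGTC
Of 10512 tested genes with a promoter in the RefSeq table, 1 gene, Ctnnb1 itself, held as many identical bases on either strand, and the median best match was 15 bases. The probe was taken from the human counterpart of this promoter, so the rank of Ctnnb1 is not a test of the motif. The study had already reported a nearly identical mouse motif, and occupancy of the mouse promoter by mutant p53 in ChIP-qPCR. A match in letters is a description and not evidence of binding.

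Between the double-mutant and Pb-ERG libraries 74 genes passed an adjusted p of 0.001, of which 73 were higher (0.468% of the genes tested) and 1, Ephx1, was lower (0.00642%), or 0.475% in all. For each of the 74 every double-mutant library lay on one side of all Pb-ERG libraries, which was so for 24.5% of all genes tested (16.6% higher and 7.87% lower). With the replicate number as a block 15 genes passed, all higher. Of the 74 genes, 25 had a mean under 1 FPKM in Pb-ERG. Genes were tested if they reached 1 FPKM in at least 2 of the 11 libraries. Agtr2, Aoc1 and Serpina1b reached it in double-mutant libraries only, so that they were tested through the group where they were high. At an adjusted p of 0.05, 1419 genes passed (9.11%), 1115 of them higher (7.16%) and 304 lower (1.95%), and the median difference of all genes was 0.08. The share of higher genes among those called at 0.05 depended on the scaling, at 78.6% as deposited, 60.3% with median-of-ratios scaling, 58.8% with trimmed-mean scaling and 24.9% with equal FPKM sums, which moved the median of all genes to -0.52. The FPKM sum includes Rn7sk, Rpph1 and Rmrp, which held 9.37% to 11.1% of it in Pb-ERG and 28.8% to 38.3% in the double-mutant libraries. Under equal sums a larger share of these RNAs lowers the values of the other genes of a library. As a covariate the log2 of the share of Rn7sk, Rpph1 and Rmrp in the FPKM sum was used, not their share of the fragments. In that fit no gene passed either threshold in limma, while 1626 genes had an unadjusted p under 0.05. The estimates of the 74 genes kept their direction in that fit, with a median size of 2.36 against 2.37, and their median standard error went from 0.248 to 0.441.

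**Figure D1:**
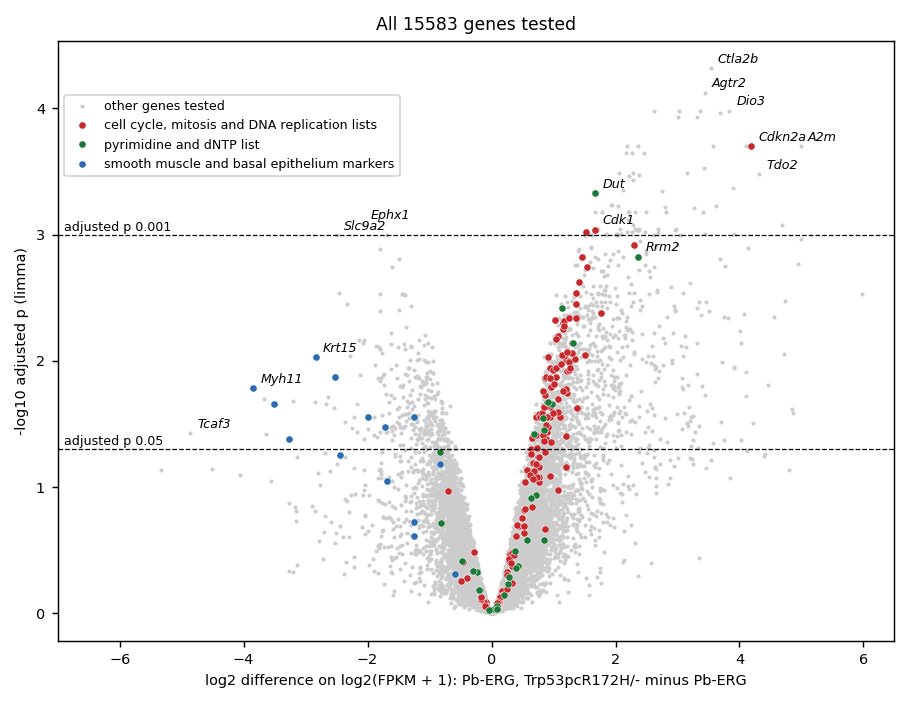
Each point is 1 of the 15583 genes tested. The x axis gives the double-mutant minus Pb-ERG difference on the log2(FPKM + 1) scale, the y axis the -log10 of the adjusted p from limma, and dashed lines mark adjusted p of 0.001 and 0.05. Genes of the cell cycle, mitosis and DNA replication lists (red) lie mostly to the right, smooth muscle and basal markers (blue) to the left, and Ephx1 is the single gene to the left above the upper line.

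The 10 largest rises named here were all in genes at no more than 6.01 FPKM in any Pb-ERG library. A2m (chr6:121636173-121679237), which encodes a broad protease inhibitor of plasma, was at 0.0510, 3.30 and 0.664 FPKM in Pb-ERG and at 47.4, 87.2 and 55.1 FPKM in the double-mutant libraries. The means differed 47.2-fold, a rise of 4.99 (SE 0.42, adjusted p = 0.000199, 0.000824 with the replicate block). Serpina1b, an alpha-1-antitrypsin gene with near-identical neighbours among which fragments could be split, rose from between 0.137 and 0.383 FPKM to 97.3, 24.7 and 13.0 FPKM (adjusted p = 0.000838, 0.00177 with the block). Tdo2, the enzyme that opens the tryptophan ring toward kynurenine, was at 0.400, 2.05 and 0.936 FPKM in Pb-ERG and at 55.3, 57.9 and 18.5 FPKM in the double-mutant libraries, a rise of 4.31 (SE 0.41, adjusted p = 0.000331, 0.00125 with the block). No library of either group crossed into the range of the other for these genes, and WT and Trp53pcR172H/- libraries stayed under 1 FPKM for all 3.

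Cdkn2a (chr4:89274471-89294653) encodes p16Ink4a, which blocks Cdk4 and Cdk6, and p19Arf, which protects p53 from Mdm2, and a gene-level value does not separate them. It was at 0.373, 1.69 and 2.68 FPKM in Pb-ERG and at 61.7, 40.4 and 30.7 FPKM in the double-mutant libraries. The rise was 4.19 (SE 0.35, adjusted p = 0.000199, 0.00139 with the block), the largest of the cell cycle list. Trp53pcR172H/- libraries held 1.55 and 0.836 FPKM and WT libraries 0.0405 to 0.162 FPKM.

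The remaining genes of the largest rises were enzymes of small molecules, a calcium-binding protein and Rnu3b1, which is given with the histone genes. Aldh1a2, the enzyme that makes retinoic acid, rose by 3.92 (SE 0.47), from between 2.14 and 6.01 FPKM to 100.3, 44.3 and 101 FPKM. Dio3, which inactivates thyroid hormone, rose by 3.84 (SE 0.29), from between 0.254 and 1.04 FPKM to 13.6, 23.2 and 29.8 FPKM. Aoc1, a diamine oxidase that degrades histamine and putrescine, rose by 3.68 (SE 0.28), from between 0.150 and 0.361 FPKM to 11.3, 25.3 and 10.8 FPKM. Cyp11a1, which starts steroid synthesis by cleaving the side chain of cholesterol, rose by 3.57 (SE 0.31), from between 0.131 and 1.41 FPKM to 21.3, 27.3 and 12.9 FPKM. S100a14, an epithelial protein of the S100 family, rose by 3.90 (SE 0.39) to 139, 48.8 and 45.5 FPKM from 2.44 to 4.76 FPKM. The adjusted p-values of these 5 genes lay between 0.000104 and 0.00099. With the block Dio3 (0.000533) and Aoc1 (0.00068) passed 0.001, while Aldh1a2 (0.00209), Cyp11a1 (0.00109) and S100a14 (0.0012) did not.

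**Figure D2:**
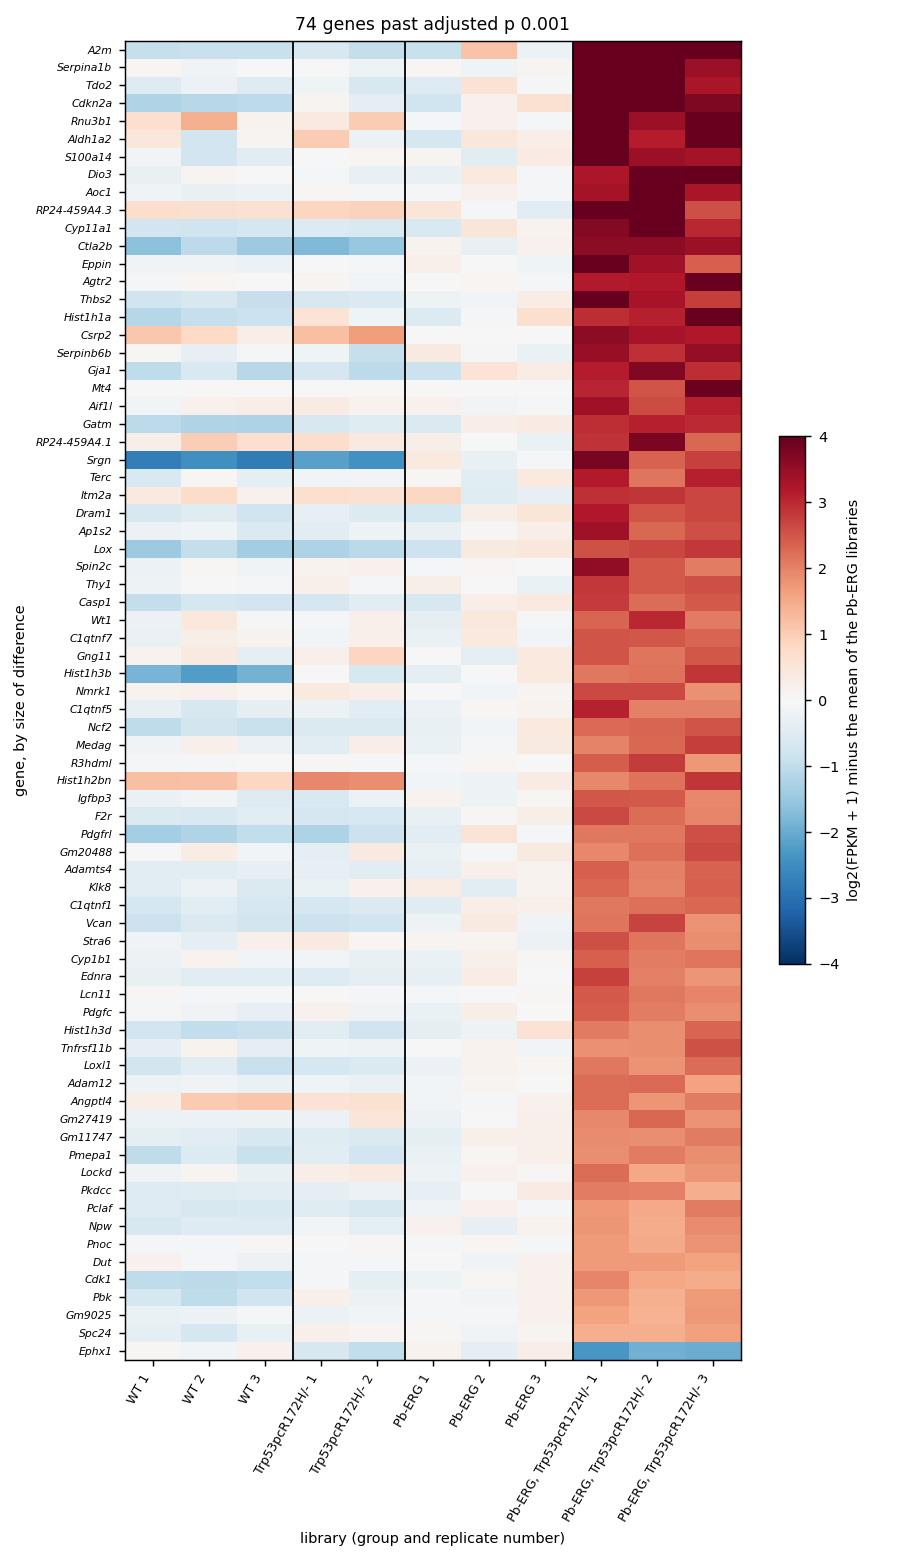
Rows are the 74 genes past an adjusted p of 0.001, ordered by their difference, and columns are the 11 libraries by group and replicate number. Colour gives log2(FPKM + 1) minus the mean of the 3 Pb-ERG libraries, and the 3 double-mutant columns are red for 73 genes and blue for Ephx1.

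Several of the 73 genes fall into groups by function, which were formed after their values were seen and carry no count of members that did not change. Besides Aldh1a2, Dio3 and Cyp11a1, hormone and retinoid metabolism held Stra6, the cell surface receptor that takes up retinol (1.14 to 1.75 FPKM against 8.12 to 14.2 FPKM, a rise of 2.20), and Cyp1b1, which hydroxylates oestrogens and polycyclic compounds. Cyp1b1 was at 2.04, 3.22 and 2.72 FPKM in Pb-ERG and at 18.1, 14.1 and 14.8 FPKM in the double-mutant libraries, a rise of 2.19 (SE 0.19, adjusted p = 0.000199, 0.00139 with the block). Of matrix genes, the glycoprotein gene Thbs2 rose by 3.43, the collagen and elastin crosslinking enzymes Lox and Loxl1 by 2.69 and 2.05, the proteoglycan gene Vcan by 2.20, and the metalloproteases Adamts4, which cleaves such proteoglycans, and Adam12 by 2.26 and 2.05. Receptors of vasoactive signals rose as well: Agtr2, an angiotensin II receptor, was at 0.0968, 0.176 and 0.0718 FPKM in Pb-ERG and at 9.14, 9.16 and 16.1 FPKM in the double-mutant libraries. That rise was 3.44 (SE 0.22, adjusted p = 7.50e-05, 0.000533 with the block), and the endothelin receptor Ednra and the thrombin receptor F2r rose by 2.18 and 2.28. Gja1, the gap junction protein connexin 43, rose by 3.27, and Igfbp3, a carrier of insulin-like growth factors, by 2.29. The adjusted p-values of the genes in this paragraph were under 0.001 as listed and under 0.004 with the block, and in bulk tissue more cells of a type and more RNA per cell cannot be told apart.

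Genes of cell division rose together. Of 64 tested members of a list for the mitotic spindle, kinetochore and chromosome condensation, 45 were higher and 0 lower at an adjusted p of 0.05, with a median difference of 1.01 where all genes had 0.08 and 7.16% were higher. Of 34 cyclins, Cdks and their regulators 14 were higher and 0 lower (median 0.64), and of 45 DNA replication genes 17 were higher and 0 lower (median 0.65). Without 1 library the mitotic count ran from 30 (without Pb-ERG replicate 1) to 52, the count of cyclins and Cdks from 7 (without Pb-ERG replicate 1) to 12, being 9 without any other library but double-mutant replicate 3, and the replication count was 5 without Pb-ERG replicate 1 or 2, 9 or 10 without a double-mutant library and 14 without Pb-ERG replicate 3. With equal FPKM sums the counts were 2, 2 and 0, and the medians 0.51, 0.19 and 0.027 stayed above that of all genes.

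Cdk1, the kinase that drives entry into mitosis (chr10:69336635-69352938), stood at 1.53, 2.02 and 2.28 FPKM in Pb-ERG and at 10.4, 7.62 and 7.24 FPKM in the double-mutant libraries. The rise was 1.67 (SE 0.19, adjusted p = 0.000915, 0.00386 with the block). Its partner cyclin B1, Ccnb1, went from 0.989, 1.28 and 1.31 FPKM to 5.19, 5.21 and 4.61 FPKM, a rise of 1.45 (SE 0.19, adjusted p = 0.0015). Cdkn3, a phosphatase that acts on Cdks, rose by 1.54 (adjusted p = 0.00181). For each of these genes the lowest double-mutant library was above the highest Pb-ERG library. Of the kinetochore genes, Spc24, a subunit of the complex that binds microtubules, was at 1.06, 0.799 and 1.14 FPKM in Pb-ERG and at 4.49, 4.5 and 5.15 FPKM in the double-mutant libraries, a rise of 1.52 (SE 0.18, adjusted p = 0.000947, 0.00264 with the block). Cenpa, the histone variant that marks centromeres, was at 0.557, 1.85 and 2.0 FPKM in Pb-ERG and 15.5, 9.30 and 8.44 FPKM in the double-mutant libraries, a rise of 2.3 (SE 0.29, adjusted p = 0.0012). Nuf2, of the same complex as Spc24, and Nusap1, a spindle protein, rose by 1.41 and 1.36. Mki67, a widely used marker of dividing cells, was at 2.05, 3.87 and 2.22 FPKM and at 12.2, 8.90 and 3.36 FPKM, so that its groups overlapped and its adjusted p was 0.0687.

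In DNA replication, the helicase subunit Mcm7 (4.49, 6.02 and 5.34 FPKM against 13.0, 12.2 and 11.2 FPKM, a rise of 1.07, adjusted p = 0.00633), the kinase activator Dbf4 (a rise of 1.2, adjusted p = 0.00983) and the clamp loader subunits Rfc4 (1.04, 0.0135) and Rfc3 (1.01, 0.0152) had the smallest adjusted p-values. Pcna, the sliding clamp, had 21.5, 13.5 and 24.2 FPKM against 31.6, 26.8 and 44.0 FPKM and an adjusted p of 0.0918. Of 16 chromatin and DNA methylation genes 5 were higher and 0 lower, where 7.16% of all genes were higher. Named here are Hmgb2 (a rise of 1.27, adjusted p = 0.00562), the nuclear lamina gene Lmnb1 (1.11, 0.00927), the remodeller Hells (0.87, 0.0186) and the histone chaperone subunit Chaf1b (0.93, 0.0356). That count was 2 without Pb-ERG replicate 1, and 3 without Pb-ERG replicate 2 or double-mutant replicate 1. Of 23 DNA repair and checkpoint genes 3 (13.0%) were higher and 0 lower with a median of 0.15 (-0.45 with equal FPKM sums), and 0 to 2 were higher without 1 library, 0 without Pb-ERG replicate 1 or double-mutant replicate 2. These were Trip13 (0.90, adjusted p = 0.0215), Rad51ap1 (0.87, 0.0232) and the checkpoint kinase Chek1 (0.70, 0.0373, and 0.0568 with the block). Chek1 passed 0.05 in 1 of the 6 fits that each left out a library, with adjusted p up to 0.0934.

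Histone genes, which cells transcribe in S phase to package new DNA, rose in most cases, and they were counted after their values were seen. Of 59 tested histone loci 46 (78.0%, where 7.16% of all genes were) were higher at 0.05, 0 were lower, and the median difference was 1.67. The linker histone gene Hist1h1a (chr13:23763717-23764358) was at 4.14, 6.08 and 10.6 FPKM in Pb-ERG and at 56.9, 63.7 and 134 FPKM in the double-mutant libraries, a rise of 3.41 (SE 0.37, adjusted p = 0.000662, 0.000895 with the block). Hist1h3b, Hist1h2bn and Hist1h3d rose by 2.37, 2.31 and 2.09 (adjusted p between 0.000908 and 0.00099, and between 0.00162 and 0.00234 with the block). Histone paralogs are near identical, so fragments could be split among them. Most of their transcripts lack a poly(A) tail, as do Rn7sk, Rpph1 and Rmrp, whose share separated the groups, and as do Terc, the telomerase RNA, and Rnu3b1, a small nucleolar RNA. Terc was at 2.35, 1.41 and 3.25 FPKM in Pb-ERG and at 28.4, 13.4 and 27.2 FPKM in the double-mutant libraries (a rise of 2.82, adjusted p = 0.000662, 0.00209 with the block), and Rnu3b1 at 0.364 to 0.624 FPKM and 29.1, 14.7 and 31.3 FPKM (adjusted p = 0.000199, 0.00139 with the block). With equal FPKM sums 13 histone genes were higher, and with the small RNA share as a covariate their median was 1.44 and none passed. The part of that share in these rises was not tested beyond this fit.

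**Figure D3:**
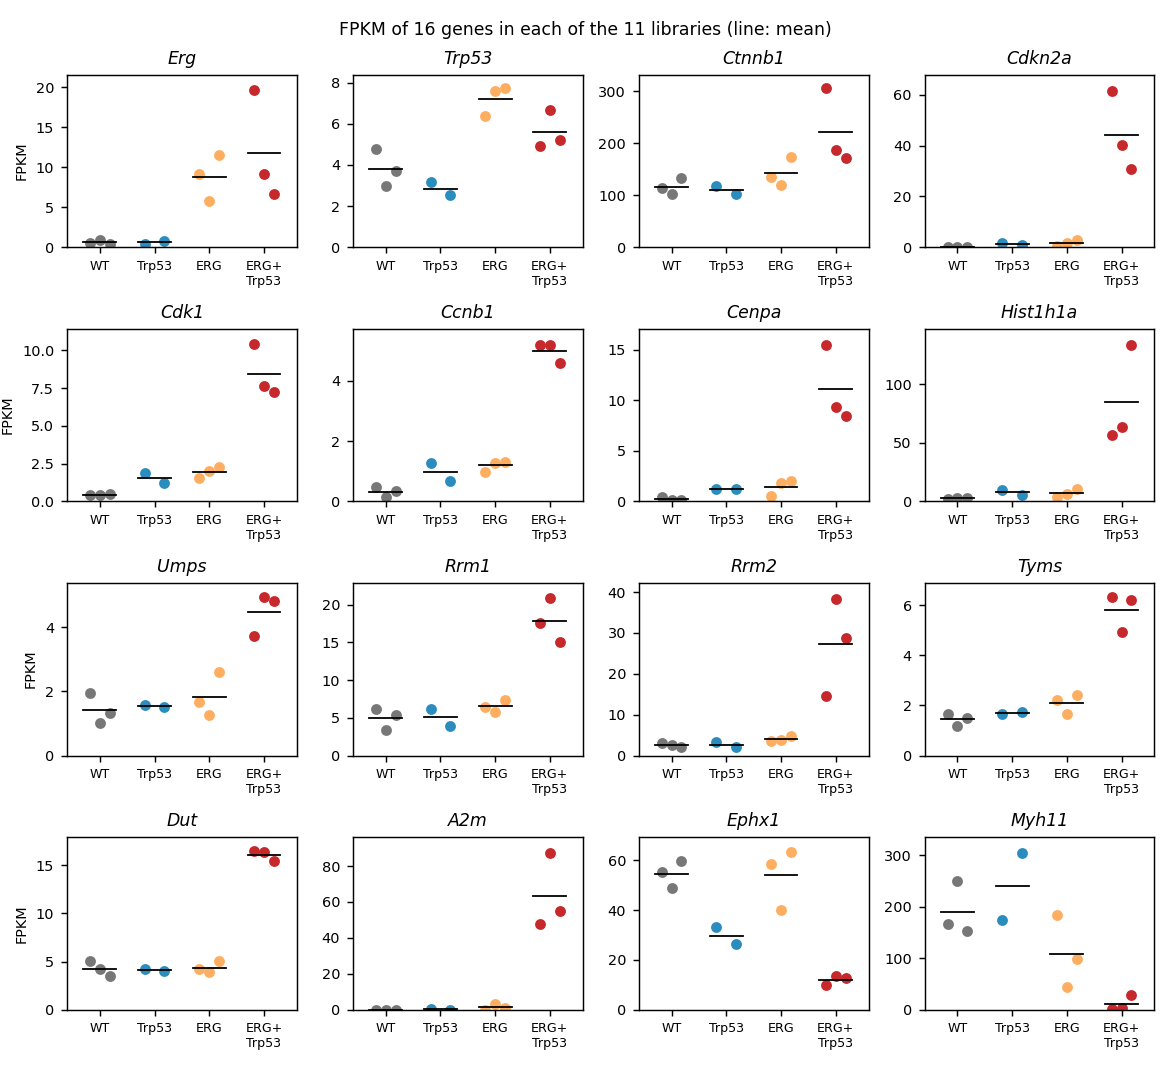
Points give the FPKM of 16 genes in each of the 11 libraries and lines give group means, on axes that start at 0. Labels WT, Trp53, ERG and ERG+Trp53 stand for WT (3 libraries), Trp53pcR172H/- (2), Pb-ERG (3) and Pb-ERG, Trp53pcR172H/- (3), and for Cdk1, Ccnb1, Rrm1, Tyms and Dut all double-mutant points lie above those of the other groups.

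The promoters of cell cycle genes are shown because members of these lists rose together. Many such promoters share a CCAAT box, bound by NF-Y, and a cell cycle homology region (CHR), bound by the DREAM and MuvB complexes through which p53 and Cdkn1a lower their transcription. The 250 bases before each start were searched on both strands for CCAAT and for the CHR forms TTTGAA and TTCGAA. Below are the 110 bases before the RefSeq start (GRCm38.p6), written 5′ to 3′ on the gene's strand, with matches in either orientation in capitals.
Cdk1, chr10:69352913-69353022, minus strand: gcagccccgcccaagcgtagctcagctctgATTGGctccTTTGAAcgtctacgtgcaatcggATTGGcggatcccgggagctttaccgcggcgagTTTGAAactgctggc
Ccnb1, chr13:100786487-100786596, minus strand: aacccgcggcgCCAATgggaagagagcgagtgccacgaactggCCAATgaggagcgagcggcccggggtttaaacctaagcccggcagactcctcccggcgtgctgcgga
Cenpa, chr5:30666776-30666885, plus strand: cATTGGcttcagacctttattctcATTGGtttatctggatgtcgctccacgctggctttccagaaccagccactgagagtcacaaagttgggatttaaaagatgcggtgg
Rrm2, chr12:24708144-24708253, plus strand: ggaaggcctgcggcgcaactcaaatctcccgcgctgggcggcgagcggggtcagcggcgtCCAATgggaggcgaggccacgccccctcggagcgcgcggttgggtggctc
Rrm1, chr7:102441585-102441694, plus strand: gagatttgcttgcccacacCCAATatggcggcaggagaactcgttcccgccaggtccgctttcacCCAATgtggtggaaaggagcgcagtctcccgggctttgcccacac
Cdk1 held CHR letters at -71 and -15 and CCAAT letters at -208, -80 and -48, counted from the start, the first of them upstream of the printed bases. A CCAAT box was found in 65.8% of the 38 promoters at hand of mitotic genes that were higher and in 63.2% of the 19 of mitotic genes that did not pass, against 35.9% of all 10512 tested genes with a promoter. CHR letters were in 34.2% and 36.8% of these promoters and in 12.3% of all. In the list of cyclins and Cdks CCAAT was in 70.0% of 10 promoters of genes that were higher and in 57.1% of 14 of those that did not pass, with CHR letters in 40.0% and 28.6%. In the DNA replication list CCAAT was in 71.4% of 14 and in 36.4% of 22, with CHR letters in 21.4% and 13.6%. These differences were not tested, and the shares say nothing of binding.

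The supply of pyrimidines and deoxynucleotides was the process the study singled out, and 4 of its genes, Umps, Rrm1, Rrm2 and Tyms, were named by the study from these samples, so their direction here is not independent evidence. Of 31 genes of the pathway 10 (32.3%) were higher, these 4 among them, and 0 lower, where 7.16% of all genes were higher. The count is thus not independent of the study's choice either. The median was 0.39, and -0.31 with equal FPKM sums. The count of higher genes was 4 without Pb-ERG replicate 2, 5 without Pb-ERG replicate 1 or double-mutant replicate 3, and 1 with equal FPKM sums. Rrm2, the regulated subunit of ribonucleotide reductase, which turns ribonucleotides into deoxynucleotides (chr12:24708241-24714146), was at 3.64, 3.88 and 4.87 FPKM in Pb-ERG and at 14.6, 38.4 and 28.8 FPKM in the double-mutant libraries. The means differed 6.60-fold, a rise of 2.37 (SE 0.31, adjusted p = 0.0015). Its partner Rrm1 was at 6.43, 5.79 and 7.36 FPKM and at 17.6, 20.9 and 15.0 FPKM, a rise of 1.32 (SE 0.23, adjusted p = 0.00723). Each double-mutant library exceeded each Pb-ERG library for both subunits.

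Dut, which hydrolyses dUTP and so keeps uracil out of DNA (chr2:125247190-125258608), had the smallest adjusted p of the pathway. It stood at 4.24, 3.86 and 5.03 FPKM in Pb-ERG and at 16.4, 16.3 and 15.5 FPKM in the double-mutant libraries, a rise of 1.67 (SE 0.17, adjusted p = 0.000467, 0.00209 with the block). Tyms, which makes dTMP from the product of Dut, was at 2.23, 1.66 and 2.41 FPKM and at 6.31, 4.95 and 6.22 FPKM, a rise of 1.14 (SE 0.18, adjusted p = 0.00381). Umps, which completes the synthesis of UMP, was at 1.65, 1.25 and 2.59 FPKM and at 3.71, 4.93 and 4.81 FPKM, a rise of 0.97 (SE 0.22, adjusted p = 0.0221). Umps had adjusted p-values of 0.0624, 0.0684 and 0.0625 without Pb-ERG replicate 1, Pb-ERG replicate 2 and double-mutant replicate 2. The exact two-sided permutation test gave its smallest possible p of 0.1 for Umps, Rrm1, Rrm2 and Tyms. Upp1, Dck, Dtymk and Ctps rose by 0.82 to 0.91. The enzymes that begin the synthesis of pyrimidines did not pass: Cad was at 12.8, 29.4 and 29.0 FPKM in Pb-ERG and at 18.1, 10.5 and 9.47 FPKM in the double-mutant libraries (difference -0.82, adjusted p = 0.191), and Dhodh differed by -0.18 (adjusted p = 0.652). Of 15 purine genes 2 (13.3%, where 7.16% of all genes were) were higher and 0 lower (median 0.57, and -0.10 with equal FPKM sums), the salvage enzyme Aprt (a rise of 1.61, adjusted p = 0.0046) and Prps2 (1.29, 0.0255). Prps2 stayed under 0.05 in 2 of the 6 fits that left out 1 library, with an adjusted p of up to 0.0766. The count of purine genes was 5 without Pb-ERG replicate 3 and 1 without Pb-ERG replicate 1 or 2 or double-mutant replicate 1 or 3.

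Of 29 p53 target genes 2 were higher and 2 were lower (median -0.07), shares of 6.90% each where all genes had 7.16% higher and 1.95% lower. With equal FPKM sums 0 were higher and 5 lower. Cdkn1a, which encodes the Cdk inhibitor p21, was at 3.86, 5.37 and 7.70 FPKM in Pb-ERG and at 4.02, 4.47 and 5.91 FPKM in the double-mutant libraries (difference -0.17, SE 0.26, adjusted p = 0.75), and Mdm2, which targets p53 for degradation, differed by -0.07 (SE 0.22). The members that rose were Pmaip1, which encodes the pro-apoptotic protein Noxa (0.660, 1.67 and 1.74 FPKM against 3.66, 4.79 and 5.13 FPKM, a rise of 1.26, adjusted p = 0.0119), and the kinase gene Plk2 (1.32, 0.0146). The members that fell were Dcxr, a xylulose reductase (77.1, 68.4 and 125 FPKM against 12.2, 30.0 and 49.5 FPKM, a difference of -1.68, adjusted p = 0.0367), and the stress cytokine gene Gdf15 (-1.57, 0.0389, and 0.0615 with the block). Of the 6 fits that each left out a library, Dcxr stayed under 0.05 in 1 and Gdf15 in 2. Adjusted p was up to 0.0977 for Dcxr without Pb-ERG replicate 3 and 0.118 for Gdf15 without Pb-ERG replicate 1.

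Genes of the Wnt pathway are given by role. Of 8 tested ligands 4 were higher and 0 lower, where 7.16% of all genes were higher and 1.95% lower. Wnt9a was at 0.787, 1.14 and 1.58 FPKM in Pb-ERG and at 4.97, 6.71 and 4.16 FPKM in the double-mutant libraries, a rise of 1.53 (SE 0.21, adjusted p = 0.00185). Wnt2 was at 2.48, 3.34 and 2.33 FPKM and at 9.06, 9.81 and 19.1 FPKM, a rise of 1.81 (SE 0.25, adjusted p = 0.00213). Wnt10a and Wnt11, both under 1 FPKM in Pb-ERG, rose by 0.90 and 0.94. Of 13 receptors 3 were higher, Fzd1 (11.2, 11.6 and 14 FPKM against 43.8, 30.9 and 30.8 FPKM, a rise of 1.43, adjusted p = 0.00306), Fzd2 (0.93, 0.00924) and Ror1 (1.04, 0.01), and Fzd5 was lower (-1.06, 0.0103). These counts of ligands and receptors were 3 or 4 and 3 in every fit that left out 1 library, and 0 and 0 with equal FPKM sums.

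Secreted Wnt inhibitors, which bind the ligands or their receptors, rose in 5 of 7 cases with a median of 1.76, where 7.16% of all genes were higher. The count was 2 with equal FPKM sums, 3 with the replicate block, and 3 without Pb-ERG replicate 2, Pb-ERG replicate 3 or double-mutant replicate 2. Sfrp4 was at 0.814, 4.44 and 4.70 FPKM in Pb-ERG and at 44.3, 14.8 and 35.7 FPKM in the double-mutant libraries, a rise of 2.96 (SE 0.46, adjusted p = 0.00397). Sfrp5 and Sfrp2 rose by 2.26 and 1.76 (adjusted p = 0.00591 and 0.0135). Wif1 was at 29.9, 8.73 and 23.3 FPKM and at 195, 88.0 and 42.9 FPKM (a rise of 2.24, adjusted p = 0.0298, 0.0505 with the block). Of 13 genes for beta-catenin, its partners and its destruction complex 1 (7.69%) was higher, a share near that of all genes. It was the transcription factor gene Lef1 (0.589, 0.900 and 0.672 FPKM against 2.90, 4.04 and 1.34 FPKM, a rise of 1.06, adjusted p = 0.0298), which stayed past 0.05 in 1 of the 6 fits that left out a library. Of 8 genes that beta-catenin is known to induce, 0 were higher and 1 was lower at 0.05, where 1.95% of all genes were lower, with a median of -0.46. Sp5 was at 3.04, 4.58 and 11.3 FPKM in Pb-ERG and at 0.279, 1.09 and 2.63 FPKM in the double-mutant libraries (difference -1.61, adjusted p = 0.0423), but its adjusted p was between 0.0798 and 0.118 in 4 fits that left out a library. Axin2, a feedback inhibitor widely used as a readout of the pathway, was at 14.6, 9.47 and 8.16 FPKM and at 6.01, 6.06 and 3.87 FPKM (difference -0.88, adjusted p = 0.0666). Lgr5 differed by -0.20 (SE 0.22).

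**Figure D4:**
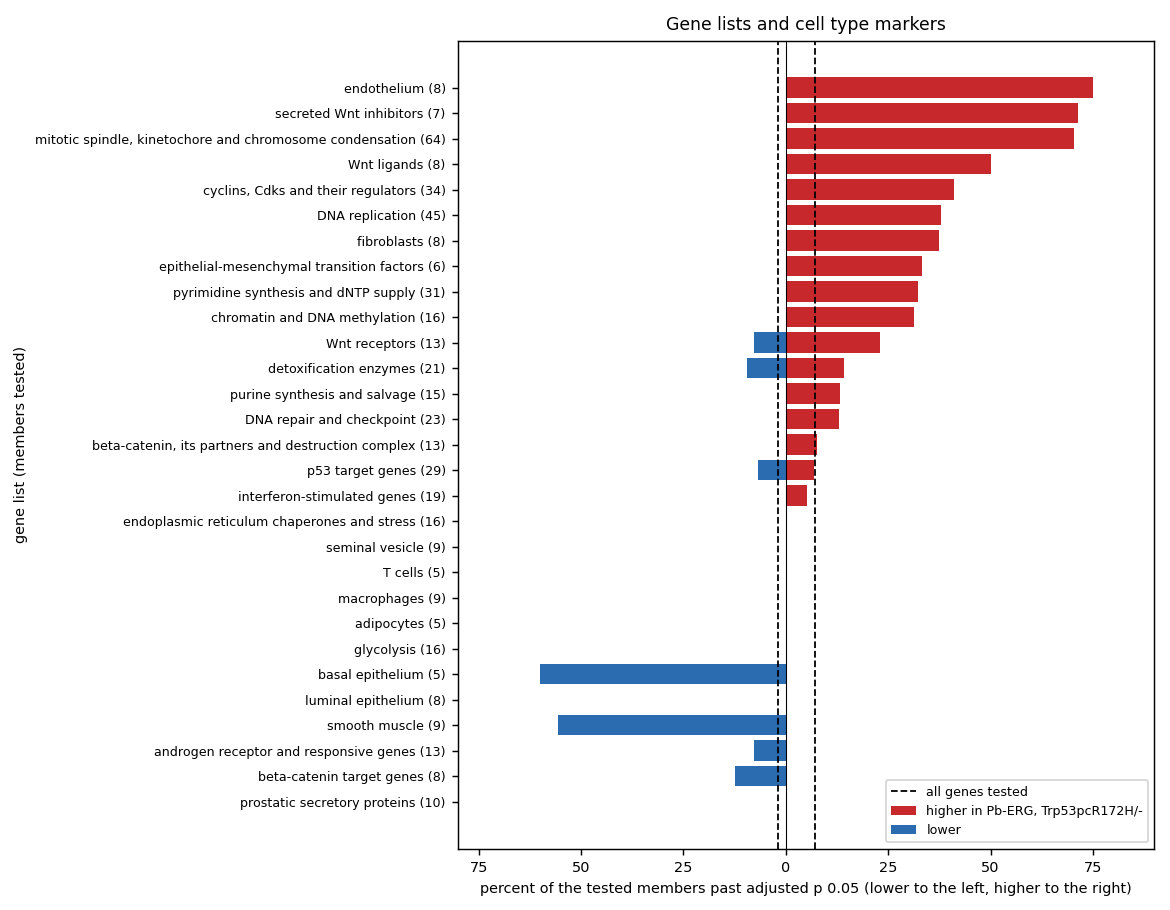
Bars give the percent of tested members past an adjusted p of 0.05 for lists with 5 or more of them, higher in double-mutant to the right (red) and lower to the left (blue), with the number tested in brackets. Dashed lines mark the shares among all genes, 7.16% higher and 1.95% lower. The longest bars on the higher side are endothelium (75%), secreted Wnt inhibitors (71.4%) and the mitotic list (70.3%). On the lower side they are basal epithelium (60%) and smooth muscle markers (55.6%).

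The single gene lower at 0.001 was Ephx1 (chr1:180989554-181017569), the microsomal epoxide hydrolase that detoxifies reactive epoxides. It was at 58.7, 40.1 and 63.4 FPKM in Pb-ERG and at 9.78, 13.3 and 12.7 FPKM in the double-mutant libraries, a fall of 4.53-fold in the means and a difference of -2.07 (SE 0.23, adjusted p = 0.000827, 0.00193 with the block). WT libraries held 48.9 to 60 FPKM and Trp53pcR172H/- libraries 33.3 and 26.3 FPKM. Of 21 detoxification enzymes 3 (14.3%) were higher and 2 (9.52%) lower, where all genes had 7.16% and 1.95%. With equal FPKM sums the counts were 1 and 5. Besides Ephx1 and Cyp1b1 the named members are Gsto1, an omega-class glutathione transferase (10.7, 8.79 and 17.8 FPKM against 95, 52.7 and 38.7 FPKM, a rise of 2.19, adjusted p = 0.00759), and Ephx2 (1.79, 0.0262), a cytosolic epoxide hydrolase. Ephx2 stayed under 0.05 in 2 of the 6 fits that left out a library, with adjusted p of up to 0.0876.

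The largest falls at an adjusted p of 0.05 included smooth muscle and basal epithelial transcripts. Myh11, the smooth muscle myosin heavy chain, was at 184, 44.7 and 97.8 FPKM in Pb-ERG and at 0.938, 3.98 and 28.1 FPKM in the double-mutant libraries, a difference of -3.85 (SE 0.82, adjusted p = 0.0165). Double-mutant replicate 3 held far more than the other libraries of its group and Pb-ERG replicate 1 the most of its own. Cnn1, a calponin of the same cells, was at 186, 30.5 and 85.1 FPKM and at 1.59, 3.79 and 26.6 FPKM (difference -3.51, adjusted p = 0.0221), and Acta1, the skeletal muscle actin gene, at 132, 17.5 and 46.7 FPKM and at 0.594, 1.28 and 14.5 FPKM (-3.67, 0.0202). Without 1 library the adjusted p of Myh11 was up to 0.0561, of Cnn1 up to 0.0698 and of Acta1 up to 0.0622. Myh11 stayed under 0.05 in 5 of these 6 fits, Cnn1 in 2 and Acta1 in 2. Of 9 smooth muscle markers 5 were lower and 0 higher (median -1.99), where 1.95% of all genes were lower. The count was 3 with the block, 0 without Pb-ERG replicate 1 and 1 without Pb-ERG replicate 3, double-mutant replicate 1 or double-mutant replicate 2, and it was 7 without Pb-ERG replicate 2 and 9 with equal FPKM sums. Acta2, the most abundant of them, was at 468, 97.2 and 237 FPKM in Pb-ERG and at 13.4, 38.9 and 117 FPKM in the double-mutant libraries, with an adjusted p of 0.056. The summed level of the 9 ran from 325 to 1646 FPKM in Pb-ERG and from 87.0 to 463 FPKM in the double-mutant libraries, so that the groups overlapped.

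Of 5 basal epithelial markers 3 were lower and 0 higher (median -1.69), where 1.95% of all genes were lower. The count was 2 or 3 in every fit that left out 1 library. The keratin gene Krt15 (chr11:100131758-100135928) was at 70.8, 20.9 and 30.9 FPKM in Pb-ERG and at 1.5, 6.54 and 6.24 FPKM in the double-mutant libraries, a difference of -2.84 (SE 0.53, adjusted p = 0.0094). Krt5 was at 25.7, 6.00 and 8.5 FPKM and at 0.243, 1.70 and 1.76 FPKM (difference -2.53, adjusted p = 0.0135), and Trp63, the p53 family member that maintains basal cells, at 3.74, 1.25 and 1.17 FPKM and at 0.0444, 0.285 and 0.278 FPKM (-1.25, 0.0276). The summed level of the 5 markers was 34.0 to 125 FPKM against 2.57 to 15.3 FPKM, with no overlap. Fewer basal cells and less RNA per basal cell cannot be told apart in whole tissue.

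Other large falls were of Tcaf3, which encodes a regulator of the TRPM8 channel (1894, 344 and 918 FPKM against 2.31, 302 and 23.4 FPKM, a difference of -4.86, SE 1.27), the potassium channel gene Kcnk3 (3.48, 20.5 and 23.4 FPKM against 0.0558, 0.0773 and 1.65 FPKM, -3.20), the proton pump subunit gene Atp6v1c2 (106, 24.9 and 33.9 FPKM against 1.33, 13.2 and 6.73 FPKM, -2.85) and the pancreatic lipase relative Pnliprp1 (28.1, 13.9 and 2.69 FPKM against 0.559, 0.751 and 1.23 FPKM, -2.68). Their adjusted p-values were 0.0376, 0.0206, 0.021 and 0.022. Of the 6 fits that each left out 1 library, Tcaf3 stayed under 0.05 in 1, Kcnk3 in 2, Atp6v1c2 in 5 and Pnliprp1 in 2. The adjusted p in these fits was up to 0.11 for Tcaf3, 0.0744 for Kcnk3, 0.0622 for Atp6v1c2 and 0.071 for Pnliprp1. The adjusted p of Tcaf3 was 0.0655 with the block. Slc9a2, a sodium-proton exchanger, Bmp7, a morphogen of prostate growth, and Egf, the epidermal growth factor, fell as well and were named after their values were seen. Slc9a2 was at 34.2, 33.4 and 47.4 FPKM and at 3.21, 6.68 and 9.14 FPKM (difference -2.49, SE 0.30, adjusted p = 0.00101). Bmp7 fell from between 18.7 and 28.9 FPKM to between 1.32 and 5.89 FPKM (-2.46, 0.00288) and Egf from between 121 and 205 FPKM to between 38.5 and 56.8 FPKM (-1.81, 0.00774). These 3 passed 0.05 in every fit that left out 1 library.

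None of 10 prostatic secretory protein genes passed at 0.05 and their median difference was -2.11. With the block 1 of them was lower, as were 2 without double-mutant replicate 3 and 4 with equal FPKM sums. Pbsn, the probasin gene whose promoter drives the transgenes, was at 5613, 3041 and 5944 FPKM in Pb-ERG and at 112, 605 and 2137 FPKM in the double-mutant libraries (difference -3.15, SE 0.92, adjusted p = 0.0577). Ceacam10 went the other way, at 27.2, 5.92 and 2.97 FPKM and at 216, 43.5 and 35.4 FPKM (2.94, 0.0684). Of 13 genes of the androgen receptor and its response 0 were higher and 1 (7.69%) was lower, where all genes had 7.16% and 1.95%. It was the transporter gene Slc45a3 (25.9, 34.8 and 50.3 FPKM against 17.1, 19.0 and 17.2 FPKM, difference -0.97, adjusted p = 0.0314). Slc45a3 stayed under 0.05 in 1 of the 6 fits that left out a library, with adjusted p of up to 0.0778. In that list 1 or 2 genes were higher and 0 lower without any 1 double-mutant library. None of 16 glycolysis genes and none of 16 endoplasmic reticulum genes passed (medians 0.03 and -0.50), while with equal FPKM sums 5 of the latter were lower (median -1.27). Gapdh, Slc2a1, Trib3 and Herpud1 had the smallest adjusted p-values of these lists, 0.235, 0.305, 0.131 and 0.292.

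Markers of cell types were checked because whole tissue was sequenced, and of all genes 7.16% were higher and 1.95% lower at 0.05. Markers of luminal epithelium, the main site of probasin promoter activity, did not pass (0 of 8, median 0.33 and -0.44 with equal FPKM sums): Krt8 was at 114, 124 and 192 FPKM in Pb-ERG and at 233, 148 and 191 FPKM in the double-mutant libraries, and Cd24a differed by 0.50 (SE 0.42). Endothelial markers were higher in 6 of 8 cases (median 1.0), 4 or 5 without 1 library and 0 with equal FPKM sums, with a summed level of 25.7 to 27.1 FPKM in Pb-ERG and 51.0 to 74.6 FPKM in the double-mutant libraries. Emcn and Pecam1, surface proteins of vessels, rose by 1.13 and 1.18 (adjusted p = 0.00723 and 0.0124). Of 8 fibroblast markers 3 were higher and 0 lower (0 and 2 with equal FPKM sums), with Pdgfra at 6.78, 13.3 and 11.5 FPKM and at 28.2, 24.7 and 25.7 FPKM (a rise of 1.28, adjusted p = 0.0101) and Dcn, the most abundant, overlapping (difference -0.61). Of the neutrophil markers 2 of 3 tested were higher, and the calprotectin gene S100a8 was at 0.608, 2.95 and 0.601 FPKM and at 3.66, 40.5 and 38.5 FPKM (3.19, 0.0231), but neither passed without double-mutant replicate 2 or 3 or without Pb-ERG replicate 1 or 3, and S100a8 had adjusted p of up to 0.068. Cxcr2 was under 1 FPKM in all 6 libraries.

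No macrophage (9), T cell (5), B and plasma cell (3), neuroendocrine (3), seminal vesicle (9), urothelial (3), adipocyte (5), nerve (2) or erythroid (3) marker passed, with numbers tested in brackets. The values for the members named by rule, with adjusted p, were -1.10 for Cd163 (0.187), -0.38 for Cd3g (0.661), 0.23 for Cd79b (0.806), -1.15 for Chga (0.16), 0.14 for Eno2 (0.758), -0.59 for Svs4 (0.879), -1.81 for Upk1a (0.29), -0.28 for Fabp4 (0.867), -1.67 for Cidec (0.296), 0.55 for Hbb-bs (0.696) and -0.72 for Alas2 (0.132). Immune markers ranged widely within groups. The macrophage markers summed to 137 to 438 FPKM in Pb-ERG and 174 to 1213 FPKM in the double-mutant libraries, with Lyz2 reaching 521 FPKM in double-mutant replicate 3, and Jchain, of plasma cells, ranged from 2.75 to 374 FPKM within the double-mutant group. The skeletal muscle markers Acta1 and Ckm both fell, with Ckm at 6.82, 1.22 and 3.94 FPKM against 0.0376, 0.0520 and 0.101 FPKM (-2.05, 0.00687) and Myh4 under 1 FPKM in all 6 libraries. The part of these cell types in the rises and falls above was not tested.

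Whether the Trp53 alleles act differently with ERG than without was tested as an interaction, the difference just described minus the difference between Trp53pcR172H/- and WT. At an adjusted p of 0.05 there were 73 genes with an interaction (0.468%), 70 positive (0.449%) and 3 negative (0.0193%). At 0.001 limma gave 0, while 1562 genes had an unadjusted p below 0.05. The replicate block left 33 at 0.05, and with limma-voom on the recovered fragments 0 did. Without ERG, the Trp53 alleles gave 1 gene past 0.05 (0.00642%), Sva, with 2 libraries against 3, and 251 at an unadjusted p below 0.05. Of the 74 genes called with ERG 56 had an interaction past 0.05, a count that shares the double-mutant and Pb-ERG libraries with the call itself. Ctla2b, a protease inhibitor gene named after its values were seen, had the smallest adjusted p, with 4.81, 3.29 and 4.89 FPKM in Pb-ERG, 62.3, 62.6 and 55.7 FPKM in the double-mutant libraries and 0.555 to 1.55 FPKM without ERG (interaction 3.79, SE 0.31, adjusted p = 0.00154). Agtr2 (3.43), Dio3 (3.92), Aoc1 (3.46) and Cyp1b1 (2.34) had adjusted p-values between 0.00328 and 0.00942. Of the lists, the interaction passed for Dut (1.70, adjusted p = 0.0211) and Cdkn2a (3.21, 0.0334), while for Rrm2 it was 2.34 with an adjusted p of 0.0592, for Cdk1 0.87 with 0.288, and for Ephx1 -1.21 with 0.201.

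**Figure D5:**
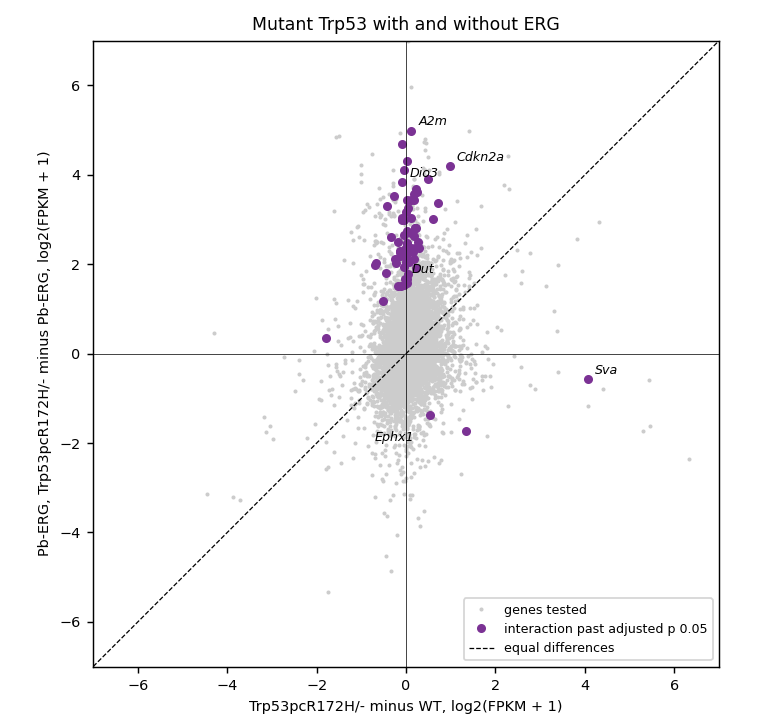
Each point is a tested gene, with the Trp53pcR172H/- minus WT difference on the x axis and the double-mutant minus Pb-ERG difference on the y axis, both on log2(FPKM + 1). Purple points are the 73 genes with an interaction past an adjusted p of 0.05, of which 70 lie above the dashed line of equal differences, and Sva, a seminal vesicle gene, lies far to the right.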

How the data were processed

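RNA from prostate was extracted with an RNeasy kit per the labels, and the study names the TruSeq RNA Sample Prep Kit for the libraries. According to the study's methods and the submitters' processing notes, paired-end reads were aligned with STAR (2.5.2b in the notes) to GRCm38 (mm10), and gene counts and FPKM came from RSeQC. The deposited values are FPKM per gene locus as the authors computed them, scaled to exon length and to total fragments, for 29291 loci in 11 libraries. Symbols were matched to current mouse names for 27342 loci and through synonyms for 858, and 1091 were kept as written. Total fragments and exon lengths were recovered from the steps between low FPKM values, where at least 98.2% of values at short loci came out whole. Depth ran from 14280978 to 51965100 fragments per library, and sets counting error only.

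Genes with FPKM of 1 or more in at least 2 of 11 libraries were tested (15583). One limma model (version 3.58.1, R 4.3.3) with a mean per genotype was fitted to all 11 libraries on log2(FPKM + 1), with a variance trend and 7 residual degrees of freedom, after the study's threshold of 0.001 on the adjusted p and a second of 0.05. On simulated counts for this comparison (14657 genes, 200 of them changed) it called 90 of the changed genes and 0 others at 0.001 and 145 with 14 others at 0.05, and for the interaction 3 with 1 other and 78 with 13 others. The simulation gave all genes the same dispersion and the libraries no difference in small RNA share or cell content. It therefore does not measure false calls in the real libraries, which differ in both. Exact permutation tests were used for 7 genes. Alternatives were other scalings, pseudocount, filters, the 6 libraries alone, limma-voom on recovered fragments, a replicate block, a small RNA covariate and leaving out each library; scaling to fragments in listed genes was added after seeing the data.

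Genes were named by rule: Erg, Trp53, Umps, Rrm1, Rrm2, Tyms and Ctnnb1; the 10 largest rises and up to 5 falls past 0.001, and the 8 largest falls past 0.05, with no overlap and a mean of at least 5 FPKM in the higher group, without predicted loci; up to 4 members per pathway list (2 where none passed); and 2 per marker list, of which 1 marker is not reported here. The comparison, the lists and the rule were chosen with earlier results of these data known, and other genes were named after their values were seen. Replicate numbers were taken to pair the libraries of the groups, since the deviations of same-numbered libraries from their group means correlated at 0.126, 0.249 and 0.330 over genes and other pairs at -0.311 to -0.003; blocked values stand beside results whose call they change. No label says what a shared number means. Since deviations were taken from the mean of each group, the values of the pairs depend on each other and do not settle a pairing. Promoters are from RefSeq (GRCm38.p6), with 1 start per gene.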

Additional observations from a re-analysis of the deposited data

Results flagged for a closer look

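The difference between double-mutant and Pb-ERG libraries was set against that between Trp53pcR172H/- and WT libraries by the interaction in limma, and 32 of the genes named passed an adjusted p of 0.05, which is what singles them out. Many were named for a large difference with ERG, which is part of the interaction, so the count is not independent of that choice. The 73 interactions over all genes became 0 with limma-voom, 5 with equal FPKM sums and 1 with the small RNA covariate. Among the largest rises the interaction was 4.88 for A2m, 4.78 for Serpina1b, 4.29 for Tdo2, 4.14 for Rnu3b1, 3.92 for Dio3, 3.46 for Aoc1, 3.41 for S100a14, 3.40 for Cyp11a1 and 3.21 for Cdkn2a. In nucleotide supply and replication it was 1.70 for Dut and 1.75 for Pclaf, a factor bound to Pcna.

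For matrix genes it was 3.26 for Thbs2, 2.57 for Lox, 2.0 for Loxl1, 2.31 for Vcan, 2.23 for Adamts4 and 2.06 for Adam12. For receptors and other surface proteins it was 3.43 for Agtr2, 2.23 for Ednra, 2.41 for F2r, 3.22 for Gja1 and 2.44 for Thy1. Of the remaining genes it was 3.79 for Ctla2b, 3.74 for Serpinb6b, 3.33 for Eppin, 2.61 for Terc, 2.65 for Csrp2, 2.45 for Wt1, 2.42 for Gatm, 2.41 for Igfbp3 and 2.34 for Cyp1b1.

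Sva was the exception in direction, with an interaction of -4.63 (adjusted p = 0.00283). It was at 17.9 and 14.6 FPKM in the Trp53pcR172H/- libraries, at 0 to 0.0944 FPKM in WT, at 0 to 1.46 FPKM in Pb-ERG and at 0 to 0.0566 FPKM in the double-mutant libraries. Seminal vesicle markers summed to 10913 and 3780 FPKM in the Trp53pcR172H/- libraries and to 286 to 12242 FPKM in WT, and their part in the value for Sva was not tested.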

How the results depend on the processing

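Of 72 genes followed through every alternative 69 kept their direction, and 898 of 1295 pairings of a gene and an alternative kept their side of the threshold while 392 lost it and 0 gained it. These pairings cover the followed genes only. Among named genes, Mki67, Pbsn and Acta2 did not pass 0.05 with all libraries. They passed in 1, 1 and 2 of the 6 fits that left out 1 library. Directions turned for Erg (-0.39 with equal FPKM sums, -0.011 with the small RNA covariate, and from -0.11 without double-mutant replicate 1 to 0.61 without double-mutant replicate 3), Trp53 (0.18 with the covariate) and Ctnnb1 (-0.17 with equal sums), none of which passed. The 74 genes past 0.001 became 31 with median-of-ratios scaling, 29 with the trimmed mean, 5 with equal FPKM sums, 23 with a pseudocount of 0.1, 8 with no filter, 0 in the 6 libraries alone, 46 with limma-voom, 34 scaled to fragments in listed genes, 15 with the replicate block, 0 with the covariate, and between 7 and 75 without 1 library (7 without Pb-ERG replicate 3, 8 without Pb-ERG replicate 2, 11 without double-mutant replicate 2, 33 without Pb-ERG replicate 1). The 1115 higher genes became 273 with equal sums, 484 in the 6 libraries, 0 with the covariate and between 658 and 1047 without 1 library (lowest without Pb-ERG replicate 1, 663 without Pb-ERG replicate 2). The 304 lower genes became 702 with median of ratios, 734 with the trimmed mean, 824 with equal sums, 178 with no filter, 56 in the 6 libraries, 0 with the covariate and between 132 and 371 without 1 library (132 without Pb-ERG replicate 3, 155 without double-mutant replicate 1, 196 without Pb-ERG replicate 1). The 73 interactions became 5 with equal sums, 20 with the smaller pseudocount, 39 with no filter, 33 with the block, 1 with the covariate, 0 with limma-voom, 44 scaled to listed fragments and between 31 and 193 without 1 library (193 without double-mutant replicate 3). The cause of these changes was not tested. In the 6 libraries alone the estimates of the 74 genes had the same median size, 2.37. Their median standard error was 0.292 against 0.248 with all 11 libraries, and fewer degrees of freedom were left. With the replicate block, genes that left 0.001 had adjusted p-values between 0.00109 and 0.00389, among them Pclaf and Eppin (0.00292 and 0.00173), and beyond the counts given beside the results it moved by over 1.5 times only that of neutrophil markers, to 1, and of lower p53 targets, to 1. Under each fit that left out 1 library the 41 named genes past 0.001 passed 0.05, with a highest adjusted p of 0.00668, and all 41 did so with the block.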

Other observations

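Of 19 tested interferon-stimulated genes 1 (5.26%) was higher at 0.05, where 7.16% of all genes were. A positive difference was found in 18 of the 19, against 8837 of all 15583 genes, and the median was 1.21 against 0.08. The gene that passed was Mx1, an antiviral GTPase gene annotated as a pseudogene in this strain's genome, at 2.37, 3.15 and 2.28 FPKM in Pb-ERG and 21.0, 11.7 and 4.24 FPKM in the double-mutant libraries (a rise of 1.66, adjusted p = 0.0349 from limma). The count was 9 without double-mutant replicate 1 and 0 without double-mutant replicate 2 or without any 1 Pb-ERG library. Of 6 tested genes of the epithelial-mesenchymal transition 2 were higher, in every fit that left out a library as well (median 0.49, and -0.08 with equal FPKM sums): Fn1, which encodes fibronectin, at 28.7, 16.2 and 22.3 FPKM against 74.9, 57.3 and 47.6 FPKM (1.39, 0.00848), and the repressor gene Snai1 at 0.404 to 0.735 FPKM against 2.03 to 2.34 FPKM (1.04, 0.0136). Wt1, a transcription factor gene of the developing urogenital tract, was at 0.508, 1.63 and 0.852 FPKM in Pb-ERG and at 8.82, 14.6 and 7.29 FPKM in the double-mutant libraries (2.48, 0.000947), and was named after its values were seen.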
